A study of Homo sapiens with 2 samples.

Results

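The large and small MAF transcription factors were described here across the cell classes of stem cell-derived beta cells (eBCs). The 5 members, *MAFA*, *MAF*, *MAFF*, *MAFG* and *MAFK*, were taken by symbol from the 33694 genes of the files, and every member had unique molecular identifiers (UMIs, counted RNA molecules) in both libraries. The study asked how eBCs change when *SOX9* is targeted, and sequenced live-sorted eBCs with the 10x Genomics platform as 1 library without and 1 library with doxycycline (DOX, 2 ug/ml from day 12 of differentiation). Both libraries came from iSOX9KO, 1 clonal derivative of the Mel1-INS-GFP human embryonic stem cell reporter line, so a DOX-inducible Cas9 and 3 guide RNAs against *SOX9* in the AAVS1 locus were carried by treated and untreated cells alike. By the methods, eBCs were reaggregated from cells sorted for high GFP, the *INS* reporter. With a single library in each condition no test between conditions was possible, and the 95% intervals below cover counting error alone.

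MAF proteins are basic leucine zipper factors that bind as dimers to an extended palindrome, the MAF recognition element. The large MAFs *MAFA* and *MAF* carry an activation domain. *MAFA* activates the insulin gene and is known as a late factor of beta cell maturation, and *MAF* (c-MAF) is known from lens, T cells and glucagon gene regulation. The small MAFs *MAFF*, *MAFG* and *MAFK* lack that domain and act mainly as partners of the CNC factors (NFE2, NFE2L1, NRF2) and of the BACH repressors, with which they occupy antioxidant response elements.

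In GENCODE 44 on GRCh38, *MAFA* (ENSG00000182759) lies on the minus strand of chromosome 8 from 143419182 to 143430732. *MAF* (ENSG00000178573) lies on the minus strand of chromosome 16 from 79585843 to 79600737. *MAFF* (ENSG00000185022) occupies chromosome 22 from 38200767 to 38216507 on the plus strand and overlaps *PLA2G6* on the other strand. *MAFG* (ENSG00000197063) spans 81918270 to 81927735 of chromosome 17 on the minus strand and overlaps *SIRT7* on the same strand and ENSG00000264769 on the other strand. *MAFK* (ENSG00000198517) is found on the plus strand of chromosome 7 from 1530702 to 1543043 and overlaps *TMEM184A* on the other strand. How the deposited Cell Ranger counts treated these overlaps is not given in the sources used here.

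The libraries held 30288 barcodes (550240855 UMIs, no DOX) and 31817 barcodes (520849221 UMIs, DOX), and 369 barcode sequences occurred in both. After removal of barcodes under 1000 UMIs and of called doublets, 44926 cells were kept. Clustering without the member genes gave beta-like cells (7011 and 9868 in the no DOX and DOX libraries), beta cell progenitor-like cells (5286 and 5342), alpha-like cells (5158 and 4214), delta-like cells (2634 and 1933), duct-like cells (153 and 178), proliferating progenitor-like cells (410 and 397) and an unnamed cluster led by mitochondrial genes (1156 and 1186). Metallothionein genes were among the leading genes of the beta-like class, whose top 10 were *IAPP*, *MT1M*, *MT1H*, *MT1B*, *MT1G*, *NEFL*, *FABP1*, *ENTPD3*, *BPIFA1* and *GNAT3*. The class markers were drawn from lists that the study made on these libraries, so these names depend on it. Markers of other cell types, in CPM (UMIs per 1000000 UMIs) over the cells kept, were mixed. *PTPRC* (immune), *PECAM1* (endothelial) and *DCN* (stromal) stood at or below 0.0165 CPM in each library. Other listed markers of the same types were counted, with 19.9 and 19.1 CPM for *CD68* and 16.1 and 4.42 CPM for *LYZ* (immune), 3.26 and 3.29 CPM for *KDR* and 3.28 and 3.08 CPM for *CLDN5* (endothelial), and 3.36 and 4.84 CPM for *COL1A2* (stromal). The targeted gene *SOX9* stood at 2.998 CPM over the cells kept in the no DOX library and at 3.78 CPM in the DOX library. The duct-like class held most of these UMIs, with 631 of 946 and 862 of 1147. In beta-like cells *SOX9* had 0.342 CPM (0.250 to 0.458) and 0.212 CPM (0.146 to 0.298) on 45 and 33 UMIs, with overlapping intervals. The targeted gene was thus not lower with DOX over the cells kept, and since cutting by Cas9 need not lower the RNA of its target, its level did not settle whether the labels of the libraries are right. The names no DOX library and DOX library stand for the libraries so labelled, and the direction of every ratio between them rests on those labels.

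*MAFA* was highest in the beta-like cells. Its level (CPM, its UMIs in all cells of a class for each 1000000 UMIs of that class) was 21.6 CPM (20.8 to 22.4) in beta-like cells of the no DOX library and 29.9 CPM (29.1 to 30.8) in those of the DOX library. Delta-like cells came next with 4.41 CPM (3.75 to 5.16) and 3.82 CPM (3.08 to 4.68). Alpha-like cells had 2.09 CPM (1.76 to 2.46) and 2.34 CPM (1.95 to 2.79). The lowest level of the large classes was that of beta cell progenitor-like cells in the no DOX library, at 1.15 CPM (0.911 to 1.44), against 2.75 CPM (2.34 to 3.21) in the DOX library. The proliferating progenitor-like class, with 11 and 22 UMIs of *MAFA*, lay below delta-like cells in the no DOX library, by a log2 ratio of delta-like over proliferating cells of 1.58 (0.71 to 2.62), and was not resolved from them in the DOX library, with 0.17 (-0.52 to 0.91). The duct-like class, with 3 and 4 UMIs, could not be ordered against its neighbour at this depth. The step from beta-like to delta-like cells exceeded counting error in each library, while below it the order of the classes changed between the libraries.

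**Figure D1:**
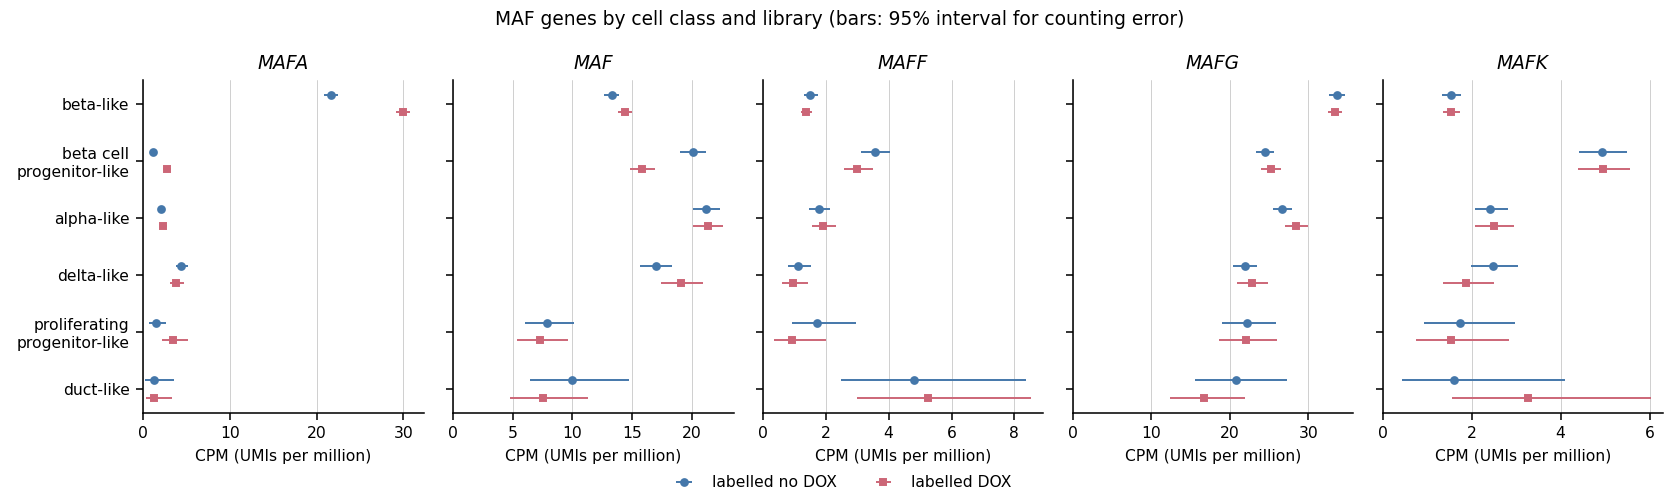
Levels of the 5 MAF genes (x axis, CPM) in 6 cell classes (y axis) of the libraries labelled no DOX (circles) and DOX (squares), with bars for the 95% interval of counting error. *MAFA* stands at 21.6 and 29.9 CPM in beta-like cells and below 6 in every other class shown, while *MAFK* and *MAFF* are higher in beta cell progenitor-like than in beta-like cells and *MAFG* lies between 16.7 and 33.6 CPM throughout.

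Against the other endocrine classes together (alpha-like, delta-like and beta cell progenitor-like cells), *MAFA* was 10.6-fold higher in beta-like cells, a log2 ratio of 3.41 (3.30 to 3.52). The ratio was 3.29 (3.14 to 3.45) within the no DOX library and 3.43 (3.28 to 3.58) within the DOX library. *MAFG* was the other member on the beta-like side, with a log2 ratio of 0.40 (0.36 to 0.44). *MAF* (-0.48, -0.53 to -0.42), *MAFF* (-0.67, -0.85 to -0.49) and *MAFK* (-1.15, -1.31 to -0.99) lay on the side of the other classes. The median log2 ratio of all genes tested was -0.30, and these 5 directions were the same with ratios taken relative to that median and with hormone UMIs left out of the totals. Genes were tested where 1 of the groups compared reached 5 CPM, and *MAFA*, *MAF* and *MAFG* did so. *MAFA* was the 1 of these 3 that was at least 2-fold higher in beta-like cells, beside 2.39% of the 10698 genes tested, and none of the 3 was at least 2-fold lower, beside 9.88%. *MAFA* reached 5 CPM through beta-like cells alone, so its passing this threshold follows in part from the filter.

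In cells thinned to 5000 UMIs each, *MAFA* had a UMI in 9.22% (8.53 to 9.94) of the beta-like cells of the no DOX library and in 11.2% (10.6 to 11.9) of those of the DOX library. Without thinning these shares were 17.8% and 21.7%, and no beta-like cell had more than 8 thinned UMIs of *MAFA*. In alpha-like cells the thinned shares were 0.750% and 1.13%, and in beta cell progenitor-like cells 0.690% and 1.253%. Released RNA can place a UMI in a cell that does not express a gene, so the levels outside the beta-like class were set beside those of *IAPP*, the amyloid peptide secreted with insulin, *SLC30A8*, the zinc transporter of insulin granules, and *PDX1*. Over both libraries *MAFA* stood at 8.41% of its beta-like level in alpha-like cells and at 7.26% in beta cell progenitor-like cells, and *IAPP* at 6.27% and 2.85%. In delta-like cells *MAFA* stood at 16.0% and *IAPP* at 3.16%. *SLC30A8* stood at 44.4% of its beta-like level in alpha-like, 29.6% in beta cell progenitor-like and 28.1% in delta-like cells, and *PDX1* at 30.9%, 56.4% and 87.3%. The part of released RNA in these low levels was not tested.

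The finer clusters divided the beta-like class. A metallothionein-led cluster of 10457 cells stayed unnamed, and a Beta-2-like cluster of 5792 cells was led by *NEFL* and *ASIC1*. Marker lists were also kept for the Beta-1 and Beta-2 cells of the study. All 12 Beta-1-like markers reached a log2 ratio of 1 over all other cells in the metallothionein-led cluster, with a mean of 2.44. All 12 Beta-2-like markers did so in the Beta-2-like cluster, with a mean of 2.43. *MAFA* was higher in the Beta-2-like cluster, with 32.2 CPM (30.6 to 33.8) against 15.4 CPM (14.6 to 16.3) in the no DOX library and 42.1 CPM (40.4 to 43.9) against 24.4 CPM (23.4 to 25.4) in the DOX library. The log2 ratio of the Beta-2-like over the metallothionein-led cluster was 1.06 (0.95 to 1.17) and 0.79 (0.70 to 0.87) in the no DOX and DOX libraries. *MAF* had a log2 ratio of 0.23 (0.13 to 0.32), which was 0.07 relative to the median of all genes at 0.15, so its difference depended on the scaling. *MAFF* was lower in the Beta-2-like cluster, with -1.17 (-1.53 to -0.82), and -1.32 relative to that median. *MAFK* did not differ beyond counting error, with -0.10 (-0.40 to 0.19), and *MAFG* had 0.10 (0.04 to 0.16), which turned to -0.05 relative to the median of all genes. A cluster of 1372 cells led by *CXCL6* and *GCG*, with a median of 2798 UMIs per cell, also held *MAFA*, at 9.66 and 8.40 CPM.

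**Figure D2:**
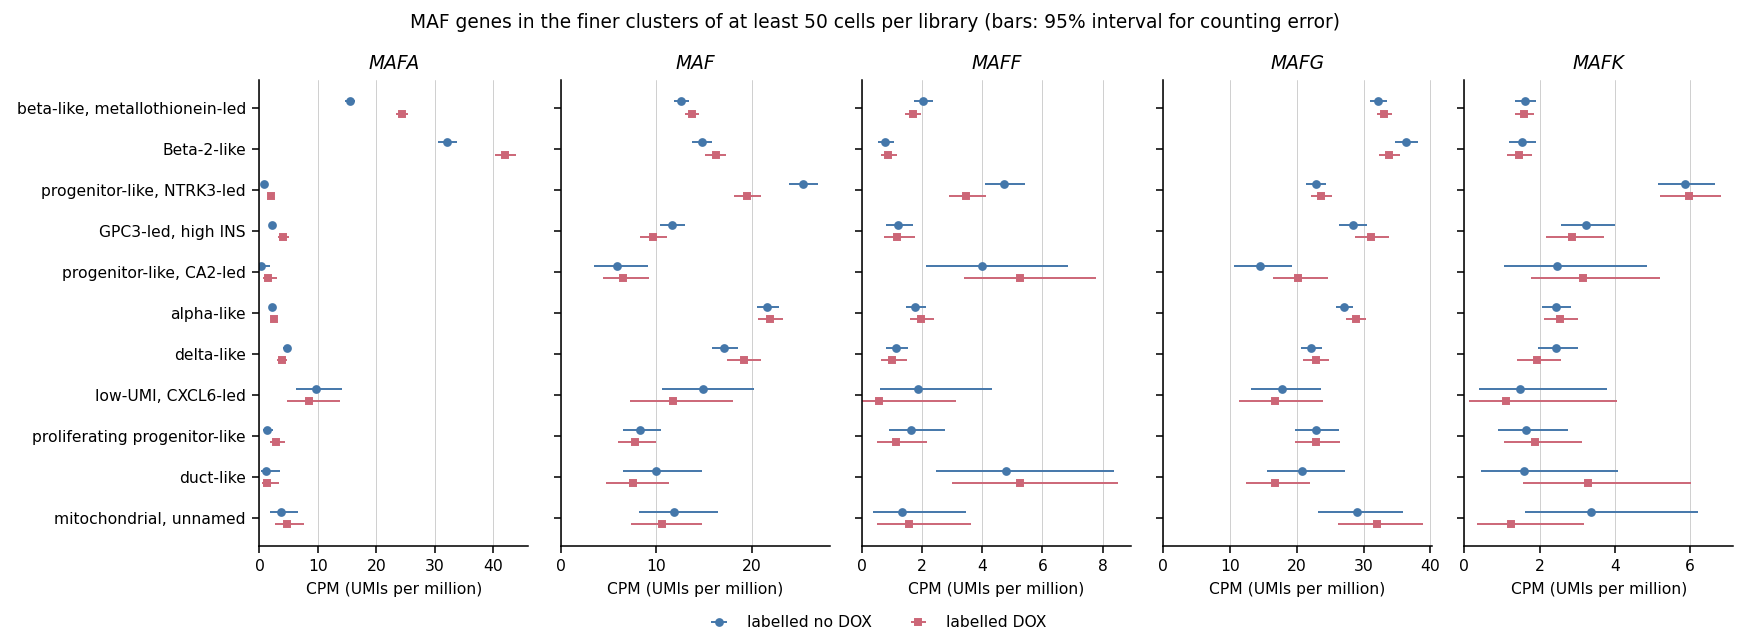
Levels of the 5 MAF genes (x axis, CPM) in the 11 finer clusters with at least 50 cells in each library (y axis), for the libraries labelled no DOX (circles) and DOX (squares), with bars for the 95% interval of counting error. The Beta-2-like cluster has the highest *MAFA* level (32.2 and 42.1 CPM), and *MAF*, *MAFF* and *MAFK* are higher in the NTRK3-led than in the GPC3-led cluster.

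*MAFA* was higher in the library labelled DOX, a direction that the level of *SOX9* did not check. Over all cells kept it stood at 10.3 CPM (9.94 to 10.7) in the no DOX and at 16.7 CPM (16.3 to 17.2) in the DOX library, a log2 ratio of 0.70 (0.64 to 0.77). Beta-like cells were 32.1% and 42.7% of the cells kept, alpha-like cells 23.7% and 18.2%, delta-like cells 12.1% and 8.36%, and beta cell progenitor-like cells 24.2% and 23.1%. Within beta-like cells the log2 ratio was smaller, at 0.47 (0.40 to 0.54). It was 0.66 (0.56 to 0.76) within the metallothionein-led cluster and 0.39 (0.29 to 0.48) within the Beta-2-like cluster. Beta cell progenitor-like cells showed a 2.38-fold higher level, a log2 ratio of 1.253 (0.85 to 1.66) on 77 and 160 UMIs. The NTRK3-led cluster, named beta cell progenitor-like by its markers, had 0.814 and 1.97 CPM. The GPC3-led cluster stayed unnamed, with no progenitor marker among its top 10 genes. Of its cells 80.5% lay in the beta cell progenitor-like class, and it had 2.19 and 3.99 CPM. Alpha-like cells (0.17, -0.19 to 0.52) and delta-like cells (-0.21, -0.60 to 0.17) showed no difference beyond counting error. In beta cell progenitor-like cells *IAPP* stood at 5.53 CPM in the no DOX and at 8.36 CPM in the DOX library. *SLC30A8* had 197 and 157 CPM there, and *PDX1* 60.1 and 60.2 CPM. The part of released RNA in the *MAFA* difference of these cells was not tested.

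The other members differed little between the libraries over all cells kept. The log2 ratio of the DOX library over the no DOX library was -0.06 (-0.12 to -0.01) for *MAF*, -0.16 (-0.33 to 0.01) for *MAFF*, 0.06 (0.02 to 0.10) for *MAFG* and -0.10 (-0.25 to 0.04) for *MAFK*. Of the 3 members tested, only *MAFA* reached a log2 ratio of 0.32, beside 1.16% of 10444 genes tested over all cells kept and 1.09% of 9841 within beta-like cells. None of the 3 reached -0.32, beside 1.99% and 2.58% of genes. Whether a difference between single libraries belongs to DOX, to the editing or to the preparation cannot be told apart.

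**Figure D3:**
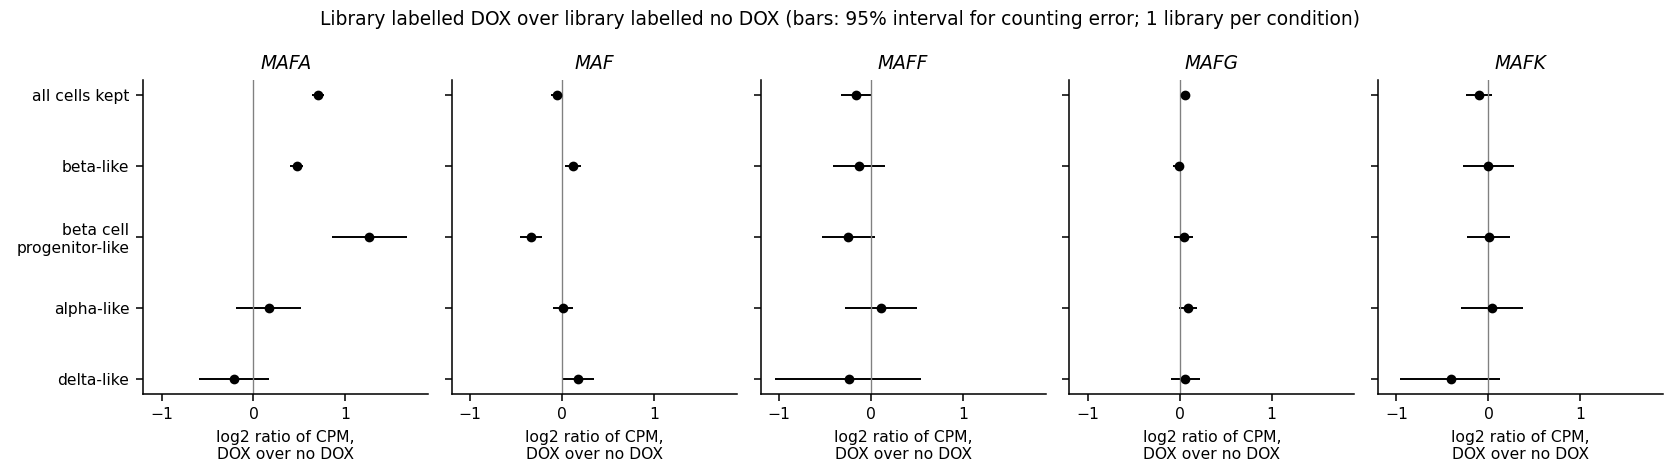
Log2 ratio of CPM in the DOX library over the no DOX library (x axis) for each MAF gene over all cells kept and in 4 classes (y axis), with bars for the 95% interval of counting error. *MAFA* lies above 0 over all cells (0.70), in beta-like cells (0.47) and in beta cell progenitor-like cells (1.253), and *MAF* lies below 0 in beta cell progenitor-like cells (-0.34).

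Cells with a *MAFA* UMI were set against those without one inside the beta-like class, at 5000 UMIs per cell (612 against 6027 cells in the no DOX library, 1074 against 8486 in the DOX library). Of the 10 genes with the largest ratio, 3 were metallothionein genes (*MT1B*, *MT1M* and *MT1G*), each lower in cells with a *MAFA* UMI, and no count over all metallothionein genes was made. *MT1G*, a zinc-binding metallothionein, stood at 262 against 1356 CPM and at 193 against 819 CPM, log2 ratios of -2.37 (-2.47 to -2.27) and -2.08 (-2.17 to -1.99). *MT1B* and *MT1M* had log2 ratios of -5.54 and -2.95 in the no DOX library and of -4.29 and -2.34 in the DOX library. *FABP1*, a fatty acid binding protein of liver and gut, had -2.97 (-3.34 to -2.62) and -2.54 (-2.83 to -2.26), and *APOA2*, an apolipoprotein, -3.33 and -2.57. On the other side *MXRA8*, a matrix remodelling-associated membrane protein, was higher at 49.0 against 8.23 CPM and 56.3 against 13.2 CPM, and *COL5A1*, a fibrillar collagen chain, had a log2 ratio of 2.28 in each library.

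Of 10 beta cell function genes linked to *MAFA* that were tested in the same comparison, 4 had a log2 ratio of at least 0.32 in both libraries, beside 6.51% of 8209 genes, and 1, *IAPP*, had at most -0.32 in both, beside 3.5%. The list median was 0.04 and 0.15, against 0.07 and 0.07 for all genes. *PDX1*, a pancreatic and beta cell homeobox factor, had 154 against 99.1 CPM and 152 against 111 CPM, log2 ratios of 0.64 (0.49 to 0.78) and 0.46 (0.35 to 0.57). *NKX6-1*, another homeobox factor of beta cells, had log2 ratios of 0.47 and 0.40, and *G6PC2*, a glucose-6-phosphatase of islets, had 0.86 and 0.44. Over all beta-like cells *G6PC2* stood at 9.08 and 8.58 CPM. It reached the minimum of 10 CPM through cells with a *MAFA* UMI alone, where it is high. Its place among the 4 thus follows in part from the filter. *ENTPD3*, which is not of that list, had 0.48 and 0.55. *INS* was lower in cells with a *MAFA* UMI, by a log2 ratio of -0.18 in the no DOX library and -0.22 in the DOX library, and *IAPP* had -1.02 and -1.34. The median UMI count before thinning was 16483 in cells with and 18625 in cells without a *MAFA* UMI in the no DOX library. Since the clusters themselves differ in metallothioneins and in *MAFA*, the comparison was repeated inside each finer cluster. Within the metallothionein-led cluster *MT1G* had -2.29 and -1.95, *MXRA8* 3.03 and 2.36, *PDX1* 0.64 and 0.58, and *NKX6-1* 0.69 and 0.59. Within the Beta-2-like cluster the ratios were smaller, with -0.64 and -0.52 for *MT1G* and 1.36 and 1.53 for *MXRA8*. *PDX1* had 0.57 and 0.25 there, and the intervals of *NKX6-1* included 0 (0.14 and 0.09). *G6PC2* kept no direction inside the finer clusters. It had -0.25 (-1.91 to 1.04) and 0.90 (0.08 to 1.64) in the metallothionein-led cluster. In the Beta-2-like cluster it had 0.65 (0.13 to 1.15) and -0.12 (-0.63 to 0.36).

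**Figure D4:**
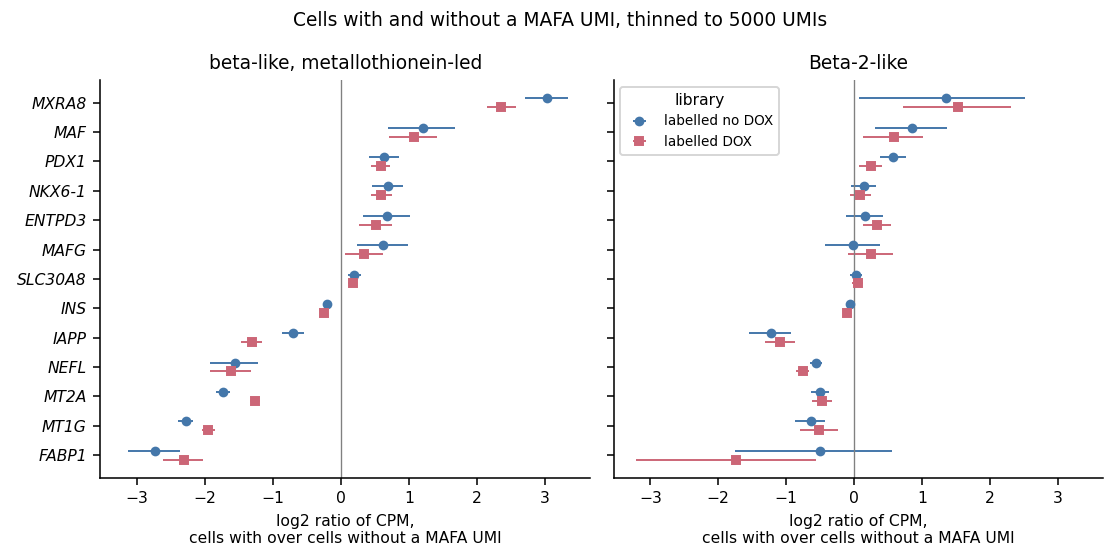
Log2 ratio of CPM in cells with over cells without a MAFA UMI (x axis) for 13 genes (y axis), inside the metallothionein-led cluster (left) and the Beta-2-like cluster (right), for the libraries labelled no DOX (circles) and DOX (squares), with bars for the 95% interval of counting error. In the left panel *MT1G* (-2.29 and -1.95) and *FABP1* lie far below 0 and *MXRA8* (3.03 and 2.36) far above, and in both panels *MAF* lies above 0.

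Cells with *MAFA* more often had the other large MAF as well. In beta-like cells of the no DOX library, 11.6% of the cells with a *MAFA* UMI and 5.82% of those without one had a *MAF* UMI, and in the DOX library these shares were 11.2% and 6.29%. Within the metallothionein-led cluster they were 12.8% (9.10 to 17.2) against 5.75% (5.02 to 6.55) and 12.0% (9.47 to 14.9) against 6.06% (5.45 to 6.71). In the Beta-2-like cluster 10.7% (7.52 to 14.6) stood against 6.36% (5.37 to 7.47) and 10.3% (7.71 to 13.4) against 7.03% (6.08 to 8.07), where the intervals overlapped in the DOX library. For *MAFG* the shares in beta-like cells were 18.3% against 15.4% and 18.2% against 15.1%. *MAFF* and *MAFK* had too few UMIs in beta-like cells to tell, with 5 and 4 cells holding *MAFA* and *MAFF* together.

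*MAFA* was lower in cells with a larger share of *INS* among their UMIs. Beta-like cells were divided into quintiles by that share, and *MAFA* was counted per 1000000 UMIs other than *INS*. In the no DOX library the level was 47.3 (41.9 to 53.1) in the quintile with the lowest *INS* share, then 38.7, 34.4 and 29.7, and 11.7 (8.80 to 15.2) in the highest. In the DOX library it was 69.8 (64.2 to 75.7), then 49.0, 36.9 and 28.7, and 15.6 (12.8 to 18.9) in the highest. In the metallothionein-led cluster the lowest and highest quintiles had 45.0 and 10.6 in the no DOX library and 76.1 and 11.6 in the DOX library. The Beta-2-like cluster showed a shallower slope, from 47.1 (38.6 to 56.9) to 35.2 (27.2 to 44.8) and from 67.9 (58.5 to 78.4) to 42.1 (34.2 to 51.2), and in the no DOX library the end intervals overlapped. *MAFG*, by comparison, lay between 38.5 and 46.4 in all 10 quintiles of the beta-like class. *MAF* lay between 15.3 and 18.8 in the no DOX library, and in the DOX library it went from 23.1 in the lowest to 12.9 in the highest quintile.

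**Figure D5:**
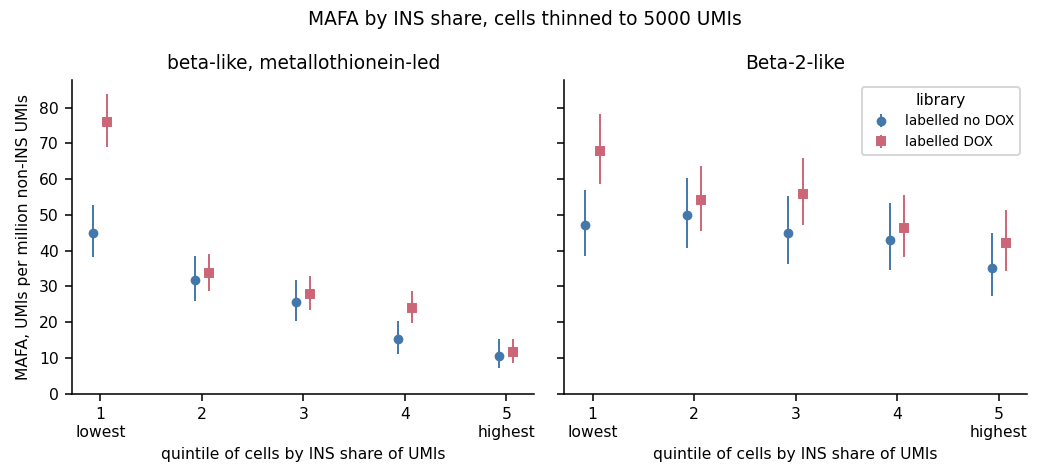
MAFA UMIs per 1000000 UMIs other than INS (y axis) in quintiles of cells ordered by the INS share of their UMIs (x axis), in the metallothionein-led cluster (left) and the Beta-2-like cluster (right), for the libraries labelled no DOX (circles) and DOX (squares), with bars for the 95% interval of counting error. The level goes from 45.0 to 10.6 and from 76.1 to 11.6 in the left panel and from 47.1 to 35.2 and from 67.9 to 42.1 in the right panel.

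*MAF* was spread over all endocrine classes. Alpha-like cells had 21.2 CPM (20.1 to 22.3) in the no DOX library and 21.3 CPM (20.1 to 22.6) in the DOX library, and delta-like cells had 17.0 CPM (15.6 to 18.4) and 19.1 CPM (17.4 to 21.0). Beta-like cells were lower, at 13.3 CPM (12.7 to 13.9) and 14.4 CPM (13.8 to 15.02), and delta-like over beta-like cells was the neighbouring step that exceeded counting error in each library. Lowest were the proliferating progenitor-like (7.89 and 7.27 CPM) and the duct-like class (9.99 and 7.54 CPM). Hormone transcripts took 35.5% of the UMIs of delta-like, 19.9% of beta-like, 17.0% of alpha-like and 6.91% of beta cell progenitor-like cells. With hormone UMIs left out of the totals the order of alpha-like and delta-like cells turned, from a log2 ratio of 0.25 to -0.11, so *MAF* has no fixed highest class here.

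The class with the largest difference in *MAF* between the libraries, as labelled, was that of the beta cell progenitor-like cells, apart from the duct-like class, which had 25 and 23 UMIs. There *MAF* went from 20.1 CPM (19.0 to 21.2) in the no DOX library to 15.9 CPM (14.8 to 16.9) in the DOX library, a log2 ratio of -0.34 (-0.46 to -0.22). The finer clusters differed the same way, with 25.4 and 19.5 CPM in the NTRK3-led and 11.6 and 9.61 CPM in the unnamed GPC3-led cluster, except for the small CA2-led cluster with 5.85 and 6.53 CPM on 19 and 31 UMIs. In beta-like cells the ratio was 0.12 (0.03 to 0.21). The relation of beta-like to beta cell progenitor-like cells depended on scaling, with a log2 ratio of -0.38 (-0.46 to -0.31) in CPM and of 0.21 relative to the median of all genes, which lay at -0.59.

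In alpha-like cells some genes differed between cells with and without a *MAF* UMI, and no count over all genes was made. *IRX1*, a homeobox gene of alpha cells, had 31.7 CPM in cells with and 18.4 CPM in cells without a *MAF* UMI in the no DOX library, and 35.6 and 21.2 CPM in the DOX library, log2 ratios of 0.79 (0.40 to 1.16) and 0.74 (0.35 to 1.12). *CYP1B1*, a cytochrome P450, had 1.14 (0.52 to 1.71) and 0.87 (0.22 to 1.48). *TDO2*, which begins tryptophan breakdown, was lower at -1.59 (-2.44 to -0.85) and -2.22 (-4.52 to -0.64). *LYZ*, lysozyme, was lower too, at -0.77 (-1.10 to -0.45) and -0.82 (-1.49 to -0.21). *GCG*, the glucagon gene, had 0.22 and 0.15.

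*MAFG*, a small MAF, was found in every class, and among the named classes it was highest in beta-like cells with 33.6 CPM (32.6 to 34.6) in the no DOX library and 33.3 CPM (32.4 to 34.3) in the DOX library. Alpha-like cells had 26.7 and 28.4 CPM, beta cell progenitor-like cells 24.5 and 25.2 CPM, and delta-like cells 21.9 and 22.8 CPM, and each of these steps exceeded counting error in both libraries. The proliferating progenitor-like class (22.2 and 22.1 CPM) was not resolved from delta-like cells in either library, nor the duct-like class (20.8 and 16.7 CPM) from the proliferating class. The place of beta-like cells above alpha-like and progenitor-like cells held without hormone UMIs and relative to the median of all genes. The place of delta-like cells did not, since the log2 ratio of beta cell progenitor-like over delta-like cells was 0.16 in CPM and -0.37 without hormone UMIs. Between the libraries *MAFG* was level in each of the 6 named classes within counting error. Beta-like cells with a *MAFG* UMI had lower *MT1G*, with log2 ratios of -0.60 (-0.64 to -0.56) and -0.40 (-0.44 to -0.35). No count over all genes was made for *MAFG*. The comparison was not repeated inside the finer clusters, which differ in metallothioneins, so the part of the cluster mix was not tested.

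*MAFK*, a partner of the CNC factors, was highest in beta cell progenitor-like cells, with 4.93 CPM (4.41 to 5.50) in the no DOX library and 4.95 CPM (4.40 to 5.56) in the DOX library. Duct-like cells had 1.60 and 3.28 CPM on 4 and 10 UMIs, and the step from progenitor-like to duct-like cells was not resolved in the DOX library, with a log2 ratio of 0.60 (-0.30 to 1.67). Beta-like cells had 1.54 CPM in each library, alpha-like cells 2.42 and 2.49 CPM, and delta-like cells 2.47 and 1.87 CPM. The proliferating progenitor-like class (1.74 and 1.55 CPM) was not resolved from beta-like cells. The NTRK3-led cluster had 5.87 and 5.97 CPM, and the unnamed GPC3-led cluster 3.23 and 2.86 CPM. The log2 ratio of beta-like over beta cell progenitor-like cells was -1.68 (-1.86 to -1.50), beyond the median of all genes at -0.59. Its level did not differ between the libraries beyond counting error in any of the 6 named classes.

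*MAFF*, a small MAF known to be induced by stress and cytokines, was higher in beta cell progenitor-like than in beta-like, alpha-like and delta-like cells. Beta cell progenitor-like cells had 3.57 CPM (3.13 to 4.05) and 3.01 CPM (2.58 to 3.49), and duct-like cells had 4.80 CPM (2.48 to 8.38) and 5.24 CPM (2.9975 to 8.52) on 12 and 16 UMIs, so the order of these classes was not resolved in either library. Beta-like cells (1.51 and 1.38 CPM), alpha-like cells (1.78 and 1.93 CPM) and delta-like cells (1.12 and 0.954 CPM) were lower. The proliferating progenitor-like class, with 1.74 and 0.928 CPM on 13 and 6 UMIs, was not resolved from beta-like cells. The NTRK3-led cluster went from 4.72 CPM (4.08 to 5.42) in the no DOX library to 3.46 CPM (2.88 to 4.11) in the DOX library, a log2 ratio of -0.45 (-0.78 to -0.12), while the intervals of all 6 named classes included 0. Progenitor-like cells with a *MAFF* UMI, 100 and 77 cells, had higher *GDF15*, a stress-induced cytokine, at 112 against 30.4 CPM and 153 against 31.5 CPM. *ATF3*, a stress-responsive basic leucine zipper factor, had log2 ratios of 1.72 (0.63 to 2.64) and 1.97 (0.81 to 2.93), and *TFF1*, a trefoil peptide, of 3.14 and 2.84. *INS* was lower in these cells, with -0.82 and -0.64. The finer clusters of this class differ in the same genes. The log2 ratio of *MAFF* in the NTRK3-led over the GPC3-led cluster was 1.80 (1.38 to 2.24) over both libraries. *INS* stood at 41684 against 132623 CPM and *ATF3* at 6.40 against 3.75 CPM there. The comparison of cells with and without a *MAFF* UMI was not repeated inside each finer cluster, so the part of the cluster mix was not tested. Among the endocrine classes *ATF3* was lowest in beta cell progenitor-like cells, at 6.01 CPM over both libraries. Beta-like, alpha-like and delta-like cells had 9.83, 26.7 and 53.8 CPM of it. In the unnamed mitochondrial cluster, with a median of 1979 UMIs per cell, *MAFA* stood at 3.85 and 4.82 CPM, *MAF* at 12.6 and 10.6 CPM and *MAFG* at 30.1 and 32.8 CPM, while *MAFF* and *MAFK* had at most 10 UMIs in a library.

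Start-site windows were read to set *MAFF* beside *MAF*. The windows reach from 250 bases before to 50 bases after the start of a gene in RefSeq on GRCh38.p14. Searched on both strands were 4 windows of 3 members (*MAF*, *MAFG* and *MAFF*). No window of *MAFA* or *MAFK* was searched. The letters searched were TGCTGAC (the core of a MAF site), TGACTCA (the AP-1 site), TGACGTCA (the cyclic AMP response element), TGACNNNGC (the core of the antioxidant response element, which can overlap the others in TGAC) and CCAAT. The *MAF* window, chr16:79600688-79600987 on the minus strand, and the first *MAFF* window, chr22:38201744-38202043 on the plus strand, are shown with matches in capitals.
MAF: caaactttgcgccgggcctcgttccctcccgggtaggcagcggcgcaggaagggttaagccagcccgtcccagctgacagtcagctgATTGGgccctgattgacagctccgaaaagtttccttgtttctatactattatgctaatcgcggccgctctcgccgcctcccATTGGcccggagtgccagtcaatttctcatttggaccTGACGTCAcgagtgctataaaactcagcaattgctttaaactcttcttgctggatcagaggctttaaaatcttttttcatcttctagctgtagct
MAFF: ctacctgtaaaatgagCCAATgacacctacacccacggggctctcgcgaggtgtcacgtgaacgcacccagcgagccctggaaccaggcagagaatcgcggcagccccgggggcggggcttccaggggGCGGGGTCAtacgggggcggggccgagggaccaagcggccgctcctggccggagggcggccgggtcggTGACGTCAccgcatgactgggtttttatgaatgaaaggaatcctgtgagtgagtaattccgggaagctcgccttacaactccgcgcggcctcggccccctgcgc
Each of these windows held TGACGTCA, at -45 from the start of *MAF* and at -54 from that of *MAFF*, which 1.85% of 35116 such windows hold. The *MAFF* window also held GCGGGGTCA at -122, a reverse match of TGACNNNGC, which 13.3% of windows hold. CCAAT, in 34.6% of windows, was matched at -234 in *MAFF* and in reverse at -163 and -82 in *MAF*. TGCTGAC and TGACTCA, in 4.19% and 4.95% of windows, were in neither, and the windows of *MAFG* and the second window of *MAFF* held none of the 5.

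Across the 11 finer clusters each member had its own nearest genes, by Pearson's r of log2(CPM + 1), a description over clusters that share libraries and depth. *MAFA* was nearest to *SLC6A2* (r = 0.92 and 0.94 in the no DOX and DOX libraries), *SYNDIG1L*, *NEFL*, *ASB9* and *NEFM*. This likeness between clusters need not hold between cells. Cells with a *MAFA* UMI had less *NEFL*, by log2 ratios of -1.56 and -1.62 inside the metallothionein-led cluster. Inside the Beta-2-like cluster these were -0.56 and -0.76. The genes nearest to *MAF* were *FOXO1* (0.84 and 0.82), *CTSD*, *CASC10*, *PTGDR2* and *CACNA2D2*. For *MAFG* they were *PCDH7* (0.90 and 0.80), *NPTX2*, *SLC30A8*, *ADAMTS5* and *RP11-284N8.3*. *MAFF* had *RHOC* (0.88 and 0.89), *TM4SF4*, *FEZ1*, *IGFBP3* and *RP3-395M20.12*, and *MAFK* had *NCOA6* (0.88 and 0.86), *TMEM102*, *ATP8B1*, *EXTL3* and *GFOD1*. Among the members themselves *MAFA* and *MAFG* had r = 0.62 and 0.55, and *MAFA* and *MAFF* -0.64 and -0.60.

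Few beta cell function genes linked to *MAFA* differed between the libraries. Of 11 such genes tested over all cells kept, none reached a log2 ratio of 0.32 between the libraries and 1 was below -0.32, *G6PC2* at -0.37, beside 1.16% higher and 1.99% lower of the 10444 genes tested, with a median log2 ratio of 0.08 against -0.01 for all genes. In beta-like cells none of 10 passed in either direction, beside 1.09% higher and 2.58% lower of 9841 genes. *G6PC2* had -0.08 there, and *INS* (-0.01) and *PDX1* (0.20) are further examples. Between beta-like and the other endocrine cells 3 of 11 were at least 2-fold higher, *IAPP* (4.55), *CHRNB4* (2.00) and *SLC30A8* (1.51), and 3 were lower, *UCN3* (-4.21), *G6PC2* (-1.50) and *CHRNB2* (-1.18), beside 2.39% higher and 9.88% lower of the 10698 genes tested. *UCN3*, at 0.752 CPM in beta-like cells, was tested through the other classes alone, where it is high. *CHRNB4*, at 17.1 CPM in beta-like cells, was tested through these cells alone, where it is high. *IAPP* and *SLC30A8* were among the markers that named the beta-like class, so their higher level follows in part from the naming. *UCN3* and *G6PC2* had their highest levels in alpha-like cells, with 33.3 and 59.6 CPM. In beta cell progenitor-like over beta-like cells 3 of 11 were higher, beside 26.5% of the 10992 genes tested, and 6 were lower, beside 3.8%. The higher genes included the prohormone convertase gene *PCSK1* (2.17) and *SLC2A2*. *SLC2A2*, at 2.70 CPM in beta-like cells, was tested through the progenitor-like cells alone, where it is high. Among the lower genes *G6PC2*, at 2.05 CPM in progenitor-like cells, was tested through beta-like cells alone. *INS*, *IAPP* and *SLC30A8*, also lower, were among the markers that named the beta-like class.

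The partners of the small MAFs and *KEAP1* were set beside *MAFF* and *MAFK* in the same comparison. Of 3 partner genes and *KEAP1* 2 were at least 2-fold higher in beta cell progenitor-like than in beta-like cells, the partner *NFE2L1* at 72.3 against 32.9 CPM and *KEAP1*, the adaptor that holds NRF2 for degradation, at 37.6 against 18.2 CPM. Of all 10992 genes tested in this comparison, 26.5% were 2-fold higher and 3.8% were 2-fold lower. *NFE2L2*, which encodes NRF2, had a log2 ratio of -0.18, and *BACH1* 0.60, about the median of all genes (0.59). Of the 3 members tested here (*MAFA*, *MAF* and *MAFG*) none was 2-fold higher and 1, *MAFA*, was lower. *MAFA* was under 5 CPM in progenitor-like cells, so it was tested through beta-like cells alone, where it is high. *MAFF* and *MAFK* were under 5 CPM in both classes and were thus left out of this count. Their levels over both libraries were 2.3-fold and 3.2-fold higher in progenitor-like than in beta-like cells. Among 14 NRF2 target genes 4 were higher and none lower, *ME1* (2.64), *SLC7A11* (1.71), *NQO1* (1.63) and *GCLC* (1.57), a count near the share of all genes, and the list median of 0.60 was close to that of all genes. *ME1*, *SLC7A11* and *NQO1* were under 5 CPM in beta-like cells, so they were tested through the progenitor-like cells alone, where they are high. Of 11 AP-1 and stress genes none was higher, beside the 26.5% of all genes, and 4 were lower, beside 3.8%, *IER2* (-1.57), *FOS* (-1.55), *JUNB* (-1.48) and *IER3* (-1.15), with a list median of -0.54.

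Between the libraries few genes of these 3 lists passed the threshold, as was so for all genes. No partner gene, nor *KEAP1*, and no NRF2 target gene passed 0.32 in either direction on the log2 scale, over all cells kept (1.16% higher and 1.99% lower of all genes) or in beta-like cells (1.09% and 2.58%). Of the AP-1 and stress genes 1 passed, *ATF3*, which was lower in beta-like cells of the DOX library (-0.52). Against the other endocrine classes, beta-like cells had none of 3 partner genes and not *KEAP1* past 2-fold, 4 of 14 NRF2 target genes lower (*SLC7A11*, *ME1*, *NQO1* and *GCLC*) and 3 of 12 AP-1 and stress genes lower (*FOSB*, *ATF3* and *EGR1*), beside 9.88% of all genes. *SLC7A11* (1.54 CPM), *ME1* (2.53 CPM), *NQO1* (4.55 CPM) and *FOSB* (2.59 CPM) were under 5 CPM in beta-like cells and were tested through the other classes alone, so these counts do not set the lists apart from all genes.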

How the data were processed

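For each library the authors deposited raw UMI counts of every gene in every barcode, not normalized. Cell Ranger 3.0.2 stands in the file headers, whereas gene counts by the methods came from kallisto, with the Ensembl GRCh38 transcriptome, and bustools, so the deposited counts need not be those behind the published clusters. The submitters' notes name GRCh38, and the annotation of the Cell Ranger counts is not given in the sources used here. Barcodes under 1000 UMIs were left out, then doublets called by Scrublet in each library (26.6% and 26.5%; scanpy 1.11.5). After the methods, counts were log-normalized, total UMIs and mitochondrial share were regressed out and 50 principal components were taken. The scaling to 10000 UMIs per cell and the 3 neighbours per library were chosen here, and the neighbour graph went to the Leiden algorithm (leidenalg 0.10.2; resolution 0.2 for classes, 0.5 for finer clusters). Member genes were left out of the clustering. The balanced-neighbour step was rebuilt. Levels have exact Poisson, ratios exact conditional binomial and shares exact Clopper-Pearson intervals (scipy 1.17.1); UMIs of 1 cell are not independent, so all cover counting error only. Shares and comparisons of cells with and without a UMI, and the quintiles by *INS* share, used cells thinned to 5000 UMIs, leaving out shallower ones.

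The members and lists were chosen with earlier results of these data known. Named were the members, the 5 genes most like each across finer clusters (at least 10 CPM), the 10 genes with the largest ratio of 1 direction in both libraries between cells with and without a member's UMI (at least 10 CPM), from which a few are given, and list genes, of which those past a fold were picked after their values were seen. The script was tested on simulated counts. Alternatives are given in the closing section. Transcript compatibility counts were not analysed here.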

Additional observations from a re-analysis of the deposited data

Results flagged for a closer look

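*MAF* differed between the libraries, as labelled, in opposite directions in 2 classes. As a log2 ratio, the DOX library over the no DOX library gave 0.12 (0.03 to 0.21) in beta-like cells and -0.34 (-0.46 to -0.22) in beta cell progenitor-like cells. With 1 library per condition the difference between these classes was not tested.

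Barcodes that the report's comparisons left out also held UMIs of the members. In the called doublets of both libraries *MAFA* stood at 12.0 CPM, *MAF* at 17.0 CPM, *MAFF* at 1.74 CPM, *MAFG* at 31.5 CPM and *MAFK* at 2.94 CPM. In the 946 barcodes under the minimum, which held 681517 UMIs, *MAFA* stood at 10.3 CPM, *MAF* at 11.7 CPM and *MAFG* at 29.3 CPM, each on 20 UMIs or fewer.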

How the results depend on the processing

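The 5 log2 ratios between the libraries over all cells kept and the 5 between beta-like and the other endocrine cells were recomputed under 11 other settings and 3 more chosen after seeing the data (hormone UMIs left out of the totals, barcodes found in both libraries left out, ratios relative to the median of all genes), where each applied. Of 110 values 107 kept their direction and 84 stayed inside the counting interval. Between the libraries, *MAFA* became 0.0475 from means of log-normalized values and 0.45 with classes weighted equally. *MAFF* had -0.36 in thinned cells and 0.0169 with called doublets kept, *MAFG* 0.0111 from means of log-normalized values and -0.00895 with classes weighted equally, where it turned, and *MAFK* 0.0921 with classes weighted equally. Between the classes, relative to the median of all genes, *MAFA* had 3.71, *MAF* -0.18, *MAFF* -0.37, *MAFG* 0.70 and *MAFK* -0.85. From means of log-normalized values, a different scale whose differences are small for low genes, *MAFA* had 0.21, *MAF* -0.0397, *MAFF* -0.00857, *MAFG* 0.10 and *MAFK* -0.0187. In thinned cells *MAFA* had 3.72 and *MAFF* -0.89. *MAFA* had 3.18 with member genes kept for clustering and 3.29 in the no DOX library alone. Without hormone UMIs *MAF* had -0.42 and *MAFG* 0.46. In the no DOX library alone *MAF* had -0.58, and in the DOX library alone *MAF* had -0.37 and *MAFG* 0.36. The cause of these shifts was not tested. No paired analysis was possible because there is 1 library per condition. Depth limits *MAFF* and *MAFK* most, and *MAFA* outside beta-like cells.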
